A study of Mus musculus with 6 samples.

Results

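The contractile marker genes of vascular smooth muscle were followed in mouse aorta under angiotensin II, a peptide that constricts vessels and is used to provoke remodelling of their wall. They are 10 genes (Acta2, Myh11, Tagln, Cnn1, Smtn, Lmod1, Actg2, Des, Synpo2 and Myocd) that were chosen by name out of the 41064 genes in the table, with earlier results of these data known. All 10 were present and all 10 passed the filter on low counts. RNA of whole aorta was sequenced in 3 libraries labelled JOSD2 KO with Ang II and in 3 libraries labelled WT with Ang II. Josd2 encodes a deubiquitinase. Both groups received angiotensin II, and there is no untreated group here, so the comparison sets the labelled genotypes against each other under treatment. The design names 3 mice per group, and no label ties a library to a mouse. The strain, sex, age, dose and kind of Josd2 allele are not stated in the labels. The p-values therefore measure the spread between these libraries, which may be technical.

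Contraction of smooth muscle rests on thin filaments of actin that slide along thick filaments of myosin. Calponin, transgelin, smoothelin, leiomodin and synaptopodin-2 bind or build the actin filaments, and desmin filaments tie the contractile apparatus to the rest of the cell. Most of these genes are driven by serum response factor, which binds a DNA element called the CArG box, together with its coactivator myocardin. Their transcripts are the usual measure of how contractile the smooth muscle of an artery is, and vessel injury is known to lower them.

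Total counts lay between 63612353 and 75886761 per library in the deposited unit. Josd2 itself was at 21.7, 19.9 and 21.4 CPM in the libraries labelled knockout, against 29.9, 31.0 and 29.3 CPM in wild type, so its transcript was lower but still present (log2 fold change -0.52, SE 0.07, edgeR adjusted p = 0.000244). With library totals as the scale that fold change was -0.11 (edgeR adjusted p = 0.231), and the samples are called by their label for that reason. Mitochondrially encoded genes took 23.9% ± 0.0274 of all counts in the libraries labelled knockout and 36.2% ± 0.0282 in wild type (SD, n = 3 each). CPM below are counts over the library size, scaled to a common size with TMM, a method that sets the library sizes from the bulk of genes. On the scale of library totals the median of all genes lies 0.41 higher (log2) in the labelled knockouts than with TMM, and with mitochondrial genes taken out of the totals it lies 0.16 higher.

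Of the 10 genes, 5 rose in the libraries labelled knockout, 3 fell and 2 did not pass edgeR's quasi-likelihood test at an adjusted p of 0.05. Over all 20132 genes tested, 13.2% rose and 11.5% fell, 24.7% in either direction. The 5 that rose, Myh11, Cnn1, Smtn, Lmod1 and Synpo2, moved by like amounts, with log2 fold changes of 0.24 to 0.32, or 17.9% to 25.0% more. Acta2 fell by 0.30 on the log2 scale, Actg2 by 0.50 and Des by 2.19, a 4.55-fold decrease. Tagln and Myocd stood at -0.01 and 0.09. The median of the 10 fold changes was 0.17, beside -0.00307 for all genes tested. The 2 groups of libraries did not overlap in 8 of the 10 genes, as was the case for 41.1% of all genes tested. With library totals in place of TMM, 8 of the 10 rose and 1 fell, and Acta2 changed sign to 0.11. Among all genes 46.8% rose and 3.81% fell on that scale, 50.6% in either direction. The deposited FPKM, which carry the same scaling, gave 8 higher and 1 lower with limma too, where 46.9% of all genes rose and 4.31% fell. On FPKM the groups did not overlap in 9 of the 10 genes, 8 of them higher, as against 59.4% of all genes and 53.2% higher without overlap.

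**Figure D1:**
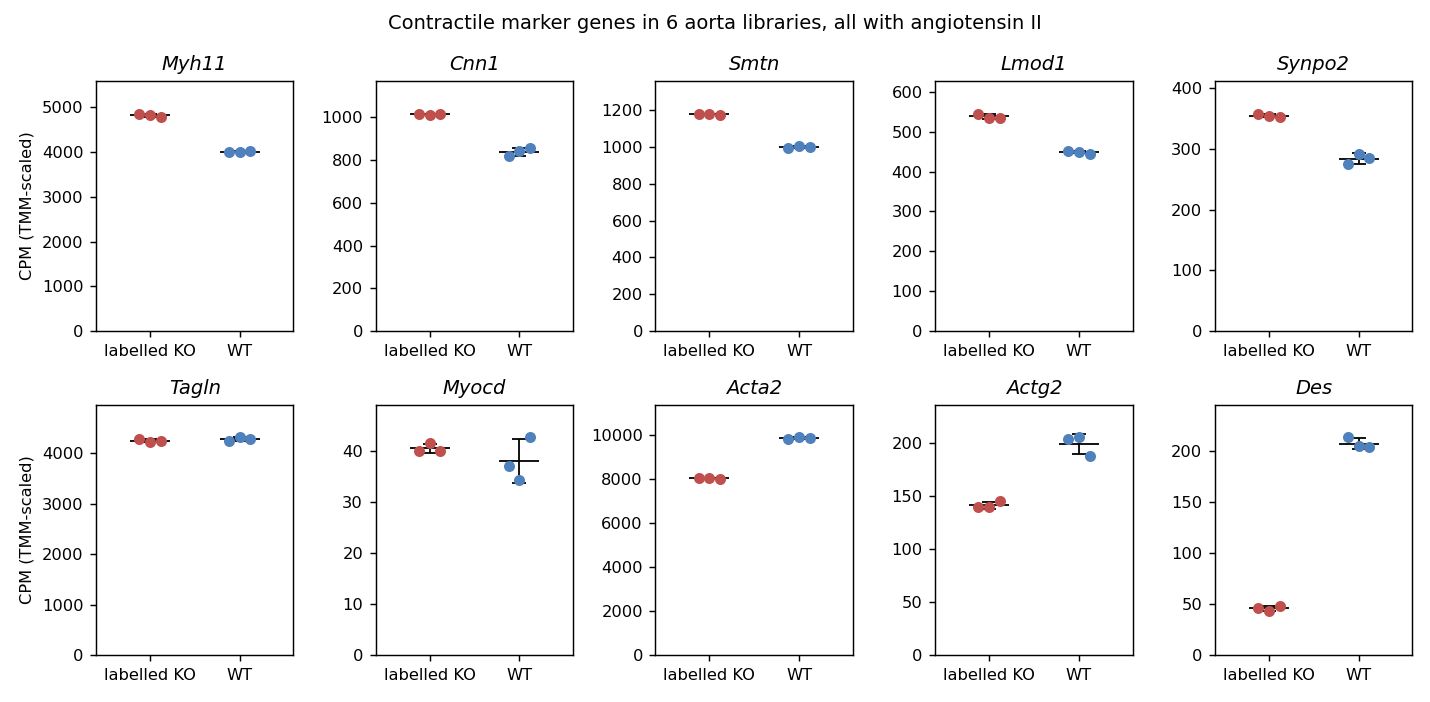
CPM (TMM-scaled, linear axis from 0) of the 10 genes in each of the 3 libraries labelled knockout and the 3 wild type libraries, with the mean as a bar and the SD as error bars. Myh11, Cnn1, Smtn, Lmod1 and Synpo2 lie higher in the labelled knockouts, Acta2, Actg2 and Des lie lower, and the points of Tagln and Myocd overlap; with library totals Acta2 turns higher.

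The promoters of Acta2, Cnn1 and Des are shown because these genes stand for a small decrease, a small increase and the large decrease. RefSeq promoter windows on build GRCm38.p6, from 250 bases before to 50 bases after the annotated start, were found for 6 of the 10 genes: Acta2, Cnn1, Des, Lmod1, Smtn and Synpo2. Capitals mark matches to the CArG box or to a CArG box with 1 G or C among its inner bases, to CATTCC, the element that TEAD factors bind, and to CAGAC, a short SMAD-binding element, on either strand.
Acta2 (chr19:34255324-34255623, minus strand): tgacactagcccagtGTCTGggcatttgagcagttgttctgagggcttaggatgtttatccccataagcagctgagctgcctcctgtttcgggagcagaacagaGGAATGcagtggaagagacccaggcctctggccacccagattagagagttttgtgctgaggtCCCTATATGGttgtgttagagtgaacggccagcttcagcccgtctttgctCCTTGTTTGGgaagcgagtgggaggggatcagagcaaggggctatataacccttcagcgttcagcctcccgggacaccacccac
Cnn1 (chr9:22099003-22099302, plus strand): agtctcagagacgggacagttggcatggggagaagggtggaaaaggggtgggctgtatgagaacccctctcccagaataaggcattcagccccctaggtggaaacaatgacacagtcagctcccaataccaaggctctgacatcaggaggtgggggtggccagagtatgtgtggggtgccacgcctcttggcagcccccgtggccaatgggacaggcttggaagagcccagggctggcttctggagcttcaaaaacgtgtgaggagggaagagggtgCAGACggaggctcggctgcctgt
Des (chr1:75360042-75360341, plus strand): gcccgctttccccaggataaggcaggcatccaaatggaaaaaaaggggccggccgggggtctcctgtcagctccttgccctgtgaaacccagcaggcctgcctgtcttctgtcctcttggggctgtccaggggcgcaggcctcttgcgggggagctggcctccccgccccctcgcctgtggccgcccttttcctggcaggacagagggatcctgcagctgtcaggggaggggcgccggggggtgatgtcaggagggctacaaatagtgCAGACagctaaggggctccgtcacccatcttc

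None of the 6 windows held an exact CArG box, which 1.63% of 32817 promoter windows of this length hold. The Acta2 window held CCCTATATGG from base -84 to -75 and CCTTGTTTGG from -34 to -25, counted from the annotated start, each with 1 inner G or C. Such a site or an exact one was found in 1 of the 6 windows and in 9.99% of all windows. CATTCC was in 3 of the 6 (Acta2, Lmod1 and Smtn) and in 14.7% of all windows. CAGAC was in 4 of the 6 (Acta2, Cnn1, Des and Smtn) and in 49.6% of all windows. In the Acta2, Cnn1 and Des windows no match of one element overlapped a match of another. Both genes that fell and genes that rose held the CAGAC element, and these matches describe the letters in the windows only.

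Acta2 encodes the alpha actin of smooth muscle, the main actin of the arterial wall. It lies on chromosome 19 from 34241090 to 34255590 on the minus strand, in the coordinates of the deposited table, which were those of GENCODE M21 on GRCm38. Its level was 8039.8, 8041 and 8030.4 CPM in the libraries labelled knockout, against 9831, 9904 and 9878 CPM in wild type. The groups were apart by far more than their spread, at 8037 ± 5.90 CPM in the labelled knockouts and 9871 ± 36.9 CPM in wild type (SD, n = 3 each; log2 fold change -0.30, SE 0.00455, edgeR adjusted p = 2.7e-12). This direction rests on the scaling, as the deposited FPKM averaged 3569.6 ± 3.38 in the labelled knockouts and 3302 ± 12.1 in wild type, 108% of the wild type value. With mitochondrial genes left out of the library totals the log2 fold change was -0.14.

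Actg2 encodes the gamma actin of smooth muscle, which is best known from the gut and bladder, and lies on chromosome 6 from 83512905 to 83536265 on the minus strand. It was at 139, 139 and 145 CPM in the libraries labelled knockout and at 204, 205 and 188 CPM in wild type, without overlap. The means were 141 ± 3.29 CPM in the labelled knockouts and 199 ± 9.77 CPM in wild type (SD, n = 3 each; log2 fold change -0.50, SE 0.04, edgeR adjusted p = 4.63e-06). Library totals left a log2 fold change of -0.09 that did not pass (edgeR adjusted p = 0.0974), and on FPKM the 2 groups overlapped. Among the paralogues, Acta1, the skeletal muscle actin gene, fell to 0.250 ± 0.114 CPM in the labelled knockouts, against 4.17 ± 0.897 CPM in wild type (log2 fold change -4.05, SE 0.38, edgeR adjusted p = 1.73e-05). Acta1 was named after its values were seen.

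The smooth muscle actins have nearly the same protein but can be told apart in the transcript. The first 90 coding bases of Acta2 and Actg2, from GENCODE M21, are given to show this, with capitals at bases that differ between them or are missing in the other after alignment.
Acta2 (chromosome 19): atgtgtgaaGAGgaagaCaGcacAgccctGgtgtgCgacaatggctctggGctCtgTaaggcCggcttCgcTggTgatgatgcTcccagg
Actg2 (chromosome 6): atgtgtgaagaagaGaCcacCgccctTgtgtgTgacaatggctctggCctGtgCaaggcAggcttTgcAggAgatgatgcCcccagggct
Over the whole coding sequence, 84.2% of the 1131 Acta2 bases were the same in Actg2, and the longest run without a difference was 29 bases. The cytoplasmic actins Actb and Actg1 shared 82.8% and 81.5% of these bases. No other gene's transcript matched Acta2 or Actg2 at 97% identity or more over at least 100 bases.

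Myh11 encodes the smooth muscle myosin heavy chain, the motor of the thick filament and the marker most restricted to smooth muscle. It lies on chromosome 16 from 14194535 to 14291372 on the minus strand. Its level was 4853, 4815 and 4789 CPM in the libraries labelled knockout, against 3997, 4007 and 4020.2 CPM in wild type. All 3 labelled knockouts stood above all wild type libraries, with means of 4819 ± 31.9 CPM in the labelled knockouts and 4008 ± 11.8 CPM in wild type (SD, n = 3 each; log2 fold change 0.27, SE 0.00703, edgeR adjusted p = 3.56e-10). With library totals the increase was 0.68.

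Cnn1 encodes calponin, which binds actin and restrains the myosin ATPase, on chromosome 9 from 22099216 to 22109630. It was at 1016, 1012 and 1013 CPM in the libraries labelled knockout and at 817, 839.9 and 855 CPM in wild type (log2 fold change 0.28, SE 0.02, edgeR adjusted p = 7.65e-07). No overlap was seen, and the wild type libraries spread more widely, with an SD of 19.4 CPM beside 2.10 CPM in the labelled knockouts.

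Smtn encodes smoothelin, a cytoskeletal protein of fully contractile smooth muscle, on chromosome 11 from 3517523 to 3540612. It was at 1180.2, 1179 and 1176 CPM in the libraries labelled knockout, against 994, 1003 and 999 CPM in wild type (log2 fold change 0.24, SE 0.01, edgeR adjusted p = 1.38e-07). No library of either group overlapped the other group. Of its exon bases, 16.3% are overlapped by Gm11946 on the other strand, and no strand setting is stated. Gm11946 was at 4.62 to 5.44 CPM in the labelled knockouts and 2.96 to 3.38 CPM in wild type.

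Lmod1 encodes leiomodin, which nucleates actin filaments in smooth muscle, on chromosome 1 from 135324807 to 135368065. It was at 545, 535 and 534 CPM in the libraries labelled knockout and at 452, 449 and 445 CPM in wild type (log2 fold change 0.26, SE 0.02, edgeR adjusted p = 1.9e-06). Synpo2 encodes synaptopodin-2, an actin-bundling protein of the Z-disc and of dense bodies, on chromosome 3 from 123076519 to 123236096. It was at 358, 354 and 352 CPM in the labelled knockouts, against 274, 292 and 285 CPM in wild type (log2 fold change 0.32, SE 0.03, edgeR adjusted p = 6.65e-06). Neither gene had overlapping groups, and with library totals their increases were 0.67 and 0.73.

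Tagln encodes transgelin, also called SM22 alpha, an actin-bundling protein that is among the first to appear in smooth muscle. It lies on chromosome 9 from 45929619 to 45936058. It was at 4279, 4234 and 4252 CPM in the libraries labelled knockout and at 4256, 4319 and 4288 CPM in wild type, and the groups overlapped (log2 fold change -0.01, SE 0.00763, edgeR adjusted p = 0.346). On FPKM the groups did not overlap, at 2088 ± 12.2 in the labelled knockouts and 1584 ± 10.9 in wild type (SD, n = 3 each), and with library totals Tagln rose by 0.40 (edgeR adjusted p = 1.61e-11). The gene Gm48529 on the other strand overlaps 62.4% of the Tagln exon bases. It was at 203, 279 and 226 CPM in the labelled knockouts, against 208, 204 and 234 CPM in wild type, so reads of the pair could not be told apart without strand.

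Des encodes desmin, the intermediate filament protein of muscle, on chromosome 1 from 75360329 to 75368579 on the plus strand. It was at 45.7, 42.8 and 48.1 CPM in the libraries labelled knockout, against 213, 204 and 204 CPM in wild type. All 3 labelled knockouts lay far below all wild type libraries, and no other gene of the 10 showed a change near this size. The means were 45.5 ± 2.64 CPM in the labelled knockouts and 207 ± 5.41 CPM in wild type (SD, n = 3 each; log2 fold change -2.19, SE 0.05, edgeR adjusted p = 5.74e-11). Des fell under every scaling tried, by 1.78 with library totals, and on FPKM it was at 29.2% of the wild type level. Over the fits that left out 1 library each, its log2 fold change lay between -2.22 and -2.14. Of its exon bases, 5.86% are overlapped by an antisense gene, Gm15179.

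Myocd encodes myocardin, the coactivator of serum response factor, on chromosome 11 from 65176561 to 65269989. It was at 40.1, 41.6 and 40.03 CPM in the libraries labelled knockout and at 37.0, 34.3 and 42.7 CPM in wild type, where its coefficient of variation of 11.3% was the highest of the 10 genes in either group. The groups overlapped and the test did not pass (log2 fold change 0.09, SE 0.08, edgeR adjusted p = 0.434). Library totals gave an increase of 0.50 (edgeR adjusted p = 0.000277).

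**Figure D2:**
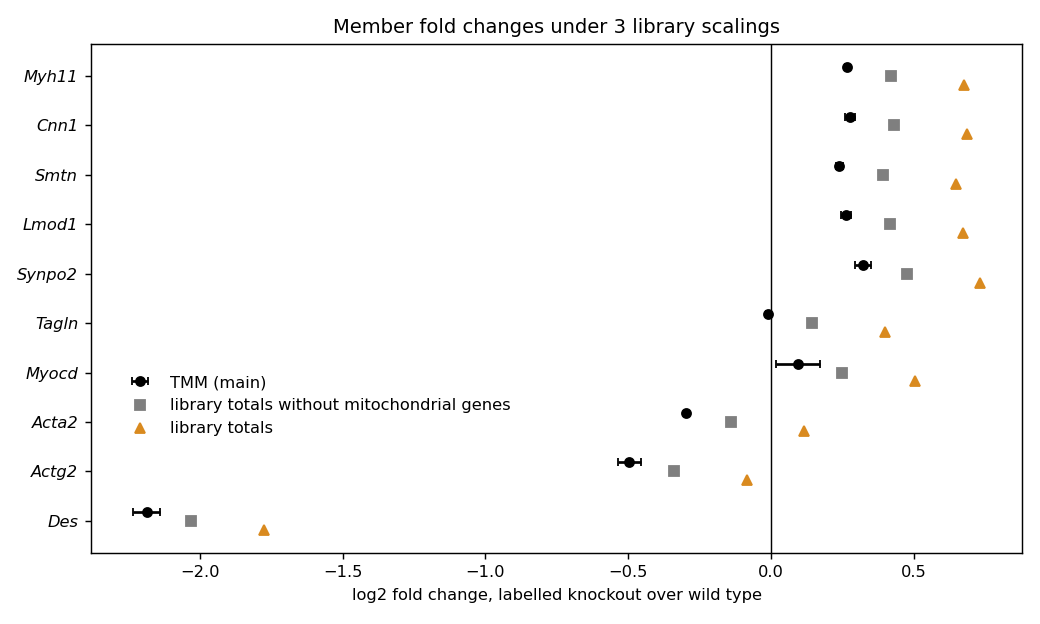
Log2 fold change (labelled knockout over wild type) of the 10 genes with TMM, with library totals without mitochondrial genes, and with library totals; error bars on the TMM points are the SE from edgeR. Each scaling moves the genes by about the same amount, so that Acta2 runs between -0.30 and 0.11 and Tagln between -0.01 and 0.40, while Des runs between -2.19 and -1.78.

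Because a change of scaling moves all genes of a library together, each gene was also set against Acta2 within its own library. Relative to Acta2, 7 of the other 9 genes were higher and 2 were lower in the libraries labelled knockout, and the groups did not overlap for any of the 9. Acta2 was itself lower than most genes with TMM, so a typical gene was higher relative to it: over all genes tested the median difference of this ratio was 0.30. Of all genes tested, 53.3% had a ratio to Acta2 without overlap, 45.4% higher and 7.91% lower, and the 7 higher ratios are to be read against that. The log2 ratio of Myh11 to Acta2 was -0.73, -0.74 and -0.75 in the labelled knockouts and -1.30, -1.31 and -1.30 in wild type. Its rise of 0.56 stood beside 0.57 for Cnn1, 0.53 for Smtn, 0.56 for Lmod1 and 0.62 for Synpo2. These 5 ratios were thus 1.45 to 1.54 times as high in the labelled knockouts as in wild type. The difference was 0.40 for Myocd, and for Tagln it was 0.29, about that of the median gene. Actg2 fell by 0.20 relative to Acta2, with ratios of -5.85, -5.85 and -5.79 in the labelled knockouts against -5.59, -5.59 and -5.72 in wild type. Des fell by 1.89, with ratios of -7.46, -7.55 and -7.38 in the labelled knockouts against -5.53, -5.60 and -5.60 in wild type. Each of these differences had an exact two-sided permutation p of 0.1, also after adjustment over the 9 ratios, which is the smallest that 3 libraries against 3 allow.

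**Figure D3:**
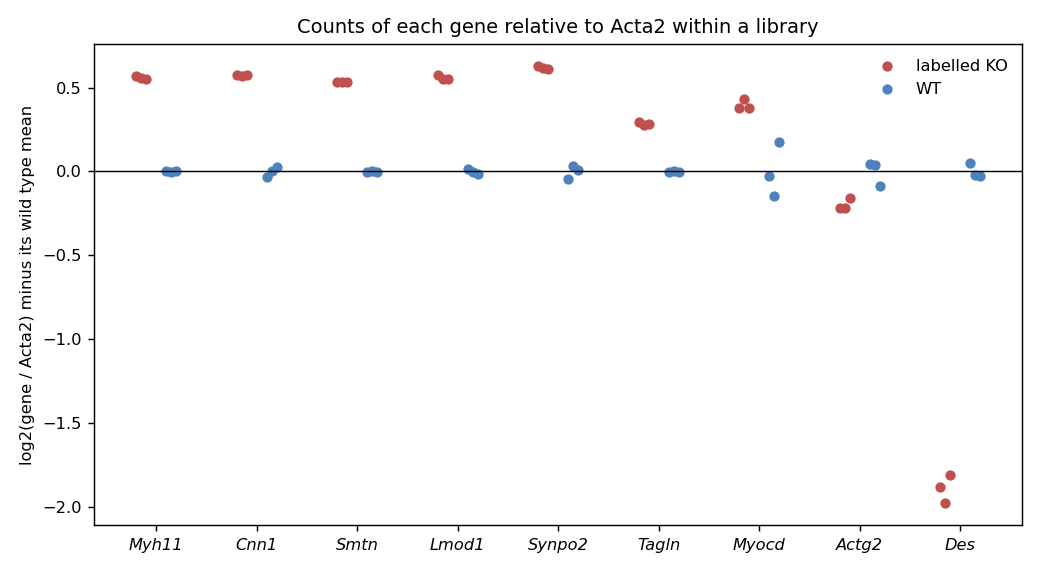
Log2 ratio of each gene's counts to those of Acta2 in the same library, with the gene's wild type mean set to 0, for the 3 libraries labelled knockout and the 3 wild type libraries (1 point per library). Myh11, Cnn1, Smtn, Lmod1 and Synpo2 lie between 0.53 and 0.62 above wild type on average, and Des lies 1.89 below; the median of all genes tested lies 0.30 above.

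Compared per length, as FPKM, the order of the 10 genes was nearly the same in both groups. In the libraries labelled knockout it ran Acta2 (mean 3569.6 FPKM), Tagln (2088), Myh11 (619), Cnn1 (361), Smtn (262), Lmod1 (133), Actg2 (88.3), Synpo2 (26.4), Des (11.8) and Myocd (6.16). In wild type it ran Acta2 (3302), Tagln (1584), Myh11 (387), Cnn1 (225), Smtn (168), Actg2 (93.8), Lmod1 (83.5), Des (40.5), Synpo2 (15.9) and Myocd (4.34). The ranges of neighbours in these orders did not overlap within either group. Lmod1 and Actg2 changed places between the groups, and so did Synpo2 and Des. The closest neighbours were Actg2 and Lmod1 in wild type, 1.12-fold apart, and Cnn1 and Smtn in the labelled knockouts, 1.38-fold apart. Among all genes that are not mitochondrial, Acta2 ranked 8 by FPKM in each of the 6 libraries. Des ranked between 2323 and 2613 in the labelled knockouts and between 479 and 498 in wild type.

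**Figure D4:**
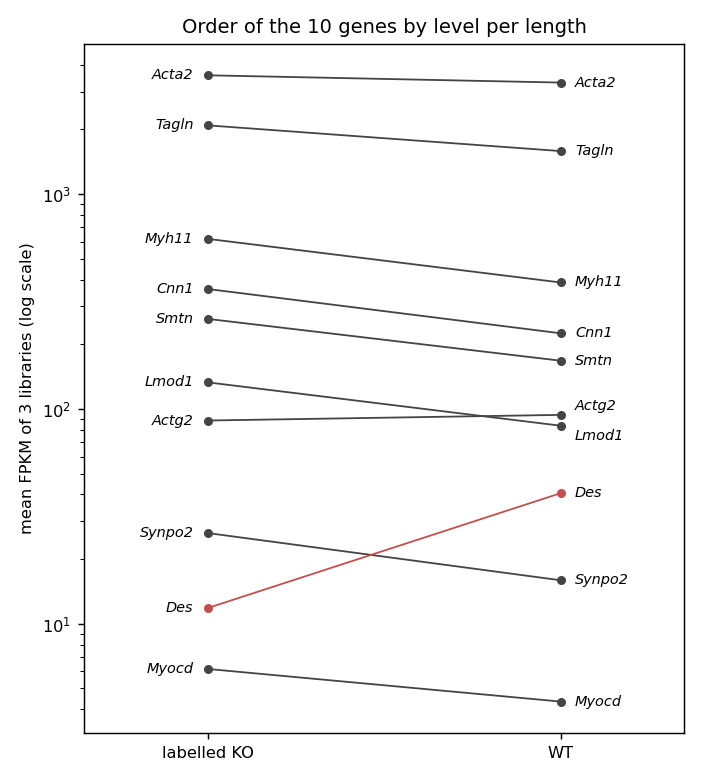
Mean deposited FPKM of 3 libraries per group (log axis) for the 10 genes, with the libraries labelled knockout at the left and wild type at the right. Des is at 11.8 in the labelled knockouts and 40.5 in wild type and crosses Synpo2, and Lmod1 crosses Actg2.

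Summed over the 10 genes, the libraries labelled knockout held 20423 ± 63.1 CPM and wild type held 21179 ± 94.0 CPM (SD, n = 3 each). As a share of counts that are not mitochondrial the sum was 3.09% ± 0.0108 in the labelled knockouts and 2.88% ± 0.0111 in wild type. Acta2 made up 39.2% to 39.4% of the counts of the 10 genes in the labelled knockouts, against 46.6% in each wild type library. The spread between libraries was small for these abundant transcripts, with a median coefficient of variation of 0.736% in the labelled knockouts and 1.53% in wild type over the 10 genes.

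Further genes of the thin filament and its anchorage did not move as 1 group. Of 30 such genes, 10 rose, 12 fell and 8 did not pass edgeR's test, with a median log2 fold change of 0.03. With library totals 26 rose and 1 fell. Over all genes tested 13.2% rose and 11.5% fell with TMM, and 46.8% and 3.81% with library totals. The counts of this and the following lists are to be read beside these shares. Abundant genes pass at smaller changes, so the shares are not a matched baseline. Fhl1, a LIM protein of muscle, rose by 0.48 on the log2 scale (SE 0.02). Itga8, an integrin subunit of contractile smooth muscle, rose by 0.40 (SE 0.01), and the actin crosslinker gene Flna rose by 0.15 (SE 0.00626). Palld, which encodes the actin-bundling protein palladin, fell by 1.28 (SE 0.05), or by 0.87 with library totals.

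Of 11 genes of myosin light chains, their kinase and their phosphatase, 6 rose, 3 fell and 2 did not pass, and with library totals 10 rose. Myl6, the essential light chain gene, rose by 0.23 (SE 0.00978), close to the 0.27 of Myh11. Ppp1r12b and Ppp1r14a, which encode a targeting subunit and an inhibitor of myosin phosphatase, rose by 0.15 and 0.35. Mylk, the light chain kinase gene, fell by 0.17 (SE 0.02), but rose by 0.24 with library totals.

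Of 18 genes for transcriptional regulators of smooth muscle, 6 rose, 2 fell and 10 did not pass, and with library totals 14 rose and none fell. Without knockout-labelled library 1 or 2, or wild type library 1 or 3, 1 fell in place of 2. Over the fits that left out 1 library each, 5 or 6 rose. The 4 with the smallest p were Hdac5, a histone deacetylase gene (0.45, SE 0.04), Fhl2, whose protein binds serum response factor (0.63, SE 0.06), Mef2d (0.37, SE 0.04) and Gata6 (0.52, SE 0.07), all higher. Srf, which encodes the serum response factor itself, was at 39.7 ± 0.174 CPM in the libraries labelled knockout and 38.6 ± 3.46 CPM in wild type (0.04, edgeR adjusted p = 0.737). Of the genes for its myocardin-related coactivators, Mrtfb rose to 33.0 ± 1.30 CPM in the labelled knockouts, against 26.6 ± 1.76 CPM in wild type (0.31, SE 0.07, edgeR adjusted p = 0.00766). Mrtfa stood at 0.05 (edgeR adjusted p = 0.76), and Klf4, a repressor of contractile genes, at 0.02 (edgeR adjusted p = 0.838). Srf, Mrtfa, Mrtfb and Klf4 were named for their roles after their values were seen, and with library totals all 4 rose, by 0.45, 0.46, 0.72 and 0.43.

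Of 8 further genes of intermediate filaments and their anchors, 4 fell, 1 rose and 3 did not pass, while 2 fell and 6 rose with library totals. The 1 that rose, Dmd (0.13, edgeR adjusted p = 0.0485), lost its call without any 1 library except wild type library 2; it was named after its values were seen. Nes, the nestin gene, fell to 176 ± 3.39 CPM in the libraries labelled knockout, against 343 ± 0.815 CPM in wild type (log2 fold change -0.97, SE 0.03, edgeR adjusted p = 3.49e-10). Synm, which encodes synemin, a partner of desmin, fell to 69.1 ± 0.813 CPM in the labelled knockouts, against 123 ± 4.54 CPM in wild type (-0.83, SE 0.04, edgeR adjusted p = 8.17e-08). Both fell under library totals as well, by 0.56 and 0.42, less than the 1.78 of Des. Vim and Lmna stood at -0.07 and -0.11 and turned upward, to 0.34 and 0.30, with library totals.

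Of 17 paralogues of the 10 genes, 16 were tested, of which 5 fell, 3 rose and 8 did not pass, and with library totals 3 fell and 6 rose. The cytoplasmic actin genes Actb and Actg1 fell by 0.58 (SE 0.01) and 0.55 (SE 0.02). Their decrease was larger than the 0.30 of Acta2, and it kept its direction with library totals, at -0.17 and -0.14. Cnn3, the calponin gene of many cell types, rose by 0.53 (SE 0.03), and Myh9, a non-muscle myosin gene, rose by 0.36 (SE 0.02).

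**Figure D5:**
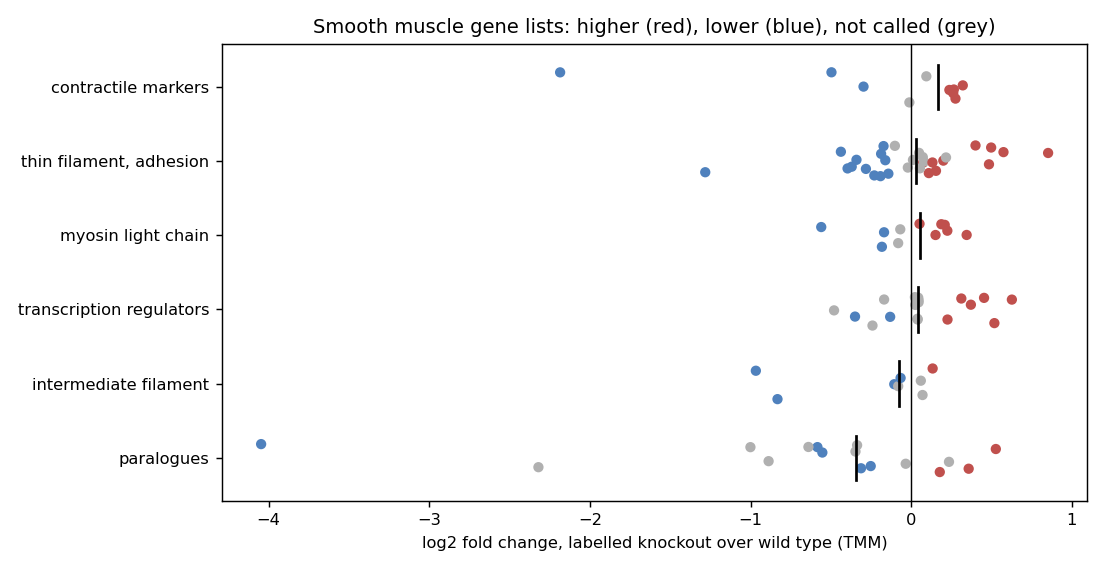
Log2 fold change with TMM (labelled knockout over wild type) of each tested gene in 6 lists, with the list's median as a black bar; genes past an edgeR adjusted p of 0.05 are red where higher and blue where lower, and grey genes did not pass. The contractile markers have a median of 0.17, and Des lies apart at -2.19; with library totals the whole picture shifts upward by 0.41.

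Genes listed as markers of other cells moved as well, and their part in the differences above was not tested. Which cells expressed them cannot be told in bulk tissue, and the pericyte genes may also be expressed by smooth muscle. In bulk tissue, fewer cells of a type and less RNA per cell cannot be told apart. All 8 endothelial markers rose, with a summed level of 774 to 781 CPM in the libraries labelled knockout and 442 to 451 CPM in wild type. Fits that left out 1 library called 7 or 8 of them. Of 7 macrophage markers 6 fell, or 6 to 7 when 1 library was left out. The sum of the 7 was 350.5 to 356 CPM in the labelled knockouts against 719.8 to 739 CPM in wild type. With library totals Csf1r lost its call (edgeR adjusted p = 0.539) and Mrc1 passed upward at 0.21 (edgeR adjusted p = 0.0235). Both were named after their values were seen. Of 6 adipocyte markers 3 rose (656 to 662 CPM in the labelled knockouts, 508 to 538 CPM in wild type). Of 7 fibroblast markers 2 rose and 5 fell (2271 to 2308 CPM in the labelled knockouts, against 2437 to 2446 CPM in wild type), but with library totals 5 rose and none fell. Of 8 pericyte markers 3 rose and 2 fell (1495 to 1522 CPM in the labelled knockouts, 1905 to 1940.3 CPM in wild type), and 6 rose and 1 fell with library totals. Rgs5 and Cspg4 fell by 0.93 and 0.24, while Abcc9 and Pdgfrb rose by 0.72 and 0.27. With library totals Cspg4 rose by 0.17. Without Rgs5, left out after seeing the data, the pericyte sum was 983 to 997 CPM in the labelled knockouts and 916 to 951 CPM in wild type.

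Desmin and Actg2 are also transcribed in the muscle of other organs. The 14 markers of heart and skeletal muscle summed to 44.0 to 44.9 CPM in the libraries labelled knockout and 42.0 to 42.9 CPM in wild type, with 1 higher, 2 lower and 11 not passing. Leaving out wild type library 3 gave 2 higher and 1 lower, leaving out knockout-labelled library 3 or wild type library 2 gave 1 lower, and library totals gave 4 higher. The members went both ways. Pln, the phospholamban gene, fell to 5.24 ± 0.261 CPM in the labelled knockouts, against 12.9 ± 0.900 CPM in wild type (log2 fold change -1.30, SE 0.12, edgeR adjusted p = 1.67e-05). Myh2, a skeletal myosin gene, fell by 2.16 (SE 0.63, edgeR adjusted p = 0.0285), with means of 0.168 CPM in the labelled knockouts and 0.756 CPM in wild type. Tnnt2, the cardiac troponin T gene, rose to 25.6 ± 1.23 CPM in the labelled knockouts, against 16.8 ± 0.469 CPM in wild type (0.61, SE 0.08, edgeR adjusted p = 0.000148). Without Tnnt2, an alternative chosen after seeing the data, the sum was 17.97 to 19.9 CPM in the labelled knockouts and 24.7 to 26.7 CPM in wild type. Among the markers left in that sum, Pln had by far the largest difference in CPM. Whether its reads came from striated or from smooth muscle was not tested. Of 13 markers of visceral and urogenital tissue 10 were tested, of which 2 rose and 6 fell, and their sum was 8.41 to 9.34 CPM in the labelled knockouts and 18.4 to 21.2 CPM in wild type. The 2 that rose, Foxf1 and Foxf2, were at 5.38 and 1.95 CPM in the labelled knockouts, against 2.47 and 0.412 CPM in wild type. They were named after their values were seen. Hoxa11 and Svs4 were at 0 counts in all 3 labelled knockouts, and Hoxd13 and Upk3a were at 0 counts in all 6 libraries. Whether tissue of other organs in the dissection bears on the levels of Des and Actg2 was not tested.

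By a root mean square distance between centred log2 CPM profiles over the 6 libraries, the genes nearest to Des among 4819 with a mean FPKM of at least 5 were Thbs1 (0.0839), Gm10800 (0.101), Tmem254b (0.148), P2rx1 (0.148) and Tmem254c (0.149). Thbs1 encodes thrombospondin-1, and P2rx1 the ATP-gated channel of arterial smooth muscle. P2rx1 was at 29.5 ± 1.23 CPM in the libraries labelled knockout and 162 ± 1.94 CPM in wild type (log2 fold change -2.46, SE 0.04). The genes nearest to Des were picked by that closeness, so a decrease like its own follows from the choice. How reads were split between the like-named Tmem254 copies is not stated. Nearest to Acta2 were Hspe1 (0.00850), Wdr1 (0.0101), Eef1a1 (0.0104), Igfbp2 (0.0118) and Pkm (0.0120). Wdr1 encodes a factor that helps take actin filaments apart, and Eef1a1 the translation elongation factor. These 5 genes were picked by their closeness to Acta2, so fold changes like its own follow from the choice under either scaling. They lay at -0.32 to -0.29, and with library totals at 0.09 to 0.11, where Hspe1 did not pass (edgeR adjusted p = 0.142).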

How the data were processed

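RNA of aorta was measured by paired-end sequencing of poly(A)-selected RNA, per the labels' protocols, in 3 libraries of each group. Bowtie 0.12.2, HISAT2 2.0 and build mm8 appear, with no role, in the submitters' processing notes. Annotation, counting tool and strand setting: not given in the sources used here. Coordinates of 9 of the 10 genes were those of GENCODE M21 (GRCm38), and for Synpo2 the end differed.

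The authors' deposited table holds an estimated count and an FPKM for each gene and library, per the file headers. The deposited counts are whole numbers with an excess at 4 (1091 to 1137 genes per library, against 792 to 867 at 3), so they were treated as estimated counts; 0 of them were not whole. For the genes checked, the authors' deposited FPKM follow the counts over the library totals, mitochondrial genes included.

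Genes passing filterByExpr (20132) were tested with edgeR 4.0.16 in R 4.3.3 (TMM, glmQLFit, glmQLFTest) without covariates, with Benjamini-Hochberg adjustment over all of them. CPM use the TMM-scaled library sizes. On simulated counts for this comparison with 19302 genes tested, 82.1% of 67 planted 1.5-fold changes, and all 67 2-fold and 66 4-fold changes, were recovered, with 8 false calls. Apart from Des, the called changes of the 10 genes were smaller than 1.5-fold, and no change that small was planted. The simulation also held no shift in the mitochondrial share, so it does not bear on the choice of scaling. Alternatives used limma 3.58.1 and DESeq2 1.42.0. BLAST+ 2.17.0 compared transcripts. The 10 genes and the gene lists were chosen with earlier results of these data known. The text names the 10 genes, Josd2, up to 4 genes per list with the smallest p, and the 5 genes nearest in profile to Acta2 and to Des; others are said to be named after their values were seen or stand where an overlap or marker level is given. Replicate numbers are shared between groups but do not pair the samples by any label. On counts divided by 4, the chi-square per gene between 2 libraries of a group had a mean of 3.03 to 3.49. Its median was 1.00 to 1.17. A chi-square of this kind has a median below its mean even under counting noise alone, so the gap was not read further. Whether the libraries of a group are technical replicates was not tested.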

Additional observations from a re-analysis of the deposited data

How the results depend on the processing

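Where a value changed with a setting, the cause was not tested. Scaled by library totals, 8 of the 10 genes were called higher and 1 lower, and limma on log2(FPKM + 1) and on log2(FPKM + 0.1) also gave 8 and 1. Under these settings Acta2 changed sign to 0.11 in each, and Actg2 kept its direction without a call (-0.086, -0.0855 and -0.0863). Tagln changed sign to 0.40 in each, to 0.14 with library totals without mitochondrial genes and to 0.0189, without a call, with no filter on low counts. It passed downward at -0.0286 with genes of a mean FPKM of at least 1 and at -0.0287 with counts divided by 4. Myocd passed upward at 0.50 with library totals, 0.25 without mitochondrial genes in the totals, 0.43 with limma on log2(FPKM + 1) and 0.50 with log2(FPKM + 0.1). Over all genes, calls were 9425 higher and 768 lower with library totals, 4926 and 1381 without mitochondrial genes, 9447 and 867 with limma at a pseudocount of 1 and 9330 and 866 at 0.1, against 2658 and 2323 with TMM. Of 24 list counts, 16 moved by over 1.5 times with library totals. Myh11, Cnn1, Smtn, Lmod1 and Synpo2 stayed higher, and Des lower, in every fit run, DESeq2 included. Leaving out any 1 library changed no call of the 10 genes, and the counts stayed at 5 higher and 3 lower.

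With the replicate number as a block, Des stood at -2.19 and Acta2 at -0.30, and the counts of 5 higher and 3 lower did not change. Over all genes the block gave 2464 higher and 2096 lower. Same-numbered libraries deviated with correlations of -0.00082 to -0.0288, and no library correlated best with its own number. A pairing by number was thus not seen, though so few libraries cannot exclude one. Myocd had the fewest counts of the 10 genes, at 3225 to 3632 per labelled knockout library and 1950 to 2750 per wild type library. Leaving out 1 library moved its log2 fold change between 0.03 and 0.19, with no call.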
